A study of Homo sapiens with 6 samples.

Results

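Calcineurin is a serine/threonine phosphatase that is switched on by calcium and calmodulin, and the 10 genes described here encode its subunits, the NFAT transcription factors it acts on and the RCAN proteins that bind and restrain it. The set consists of RCAN1, RCAN2 and RCAN3, of NFATC1, NFATC2 and NFATC3, and of PPP3CA, PPP3CB, PPP3CC and PPP3R1. These genes were looked up by symbol among 36601 genes in the count table, and the set was chosen by a reading of earlier results of the same comparison, in which RCAN2 stood out by a large fall. Their values below are therefore a description, without a test of their own. Calls of members come from the fit over all genes and are no independent support. Of the 10 genes, 9 passed the expression filter, a level above 1 CPM (counts scaled to a common library total) in at least 2 libraries, and NFATC1 did not. That filter was passed by 12263 genes in all.

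The libraries, 3 in each of 2 groups, come from NK92, a human natural killer (NK) cell lymphoma line that depends on IL-2 for growth. Cells of one group stably carried a control shRNA (shCtrl), and those of the other an shRNA against the lncRNA miR155HG (shmiR155HG), the host transcript of miR-155. Both groups had been treated for 12 h with IL-2 at 1000 U/mL and IL-12 at 10 ng/mL, so no group without cytokines or without an shRNA was sequenced. Separate transductions or cultures are stated for neither group, so SE and p-values measure only the spread between these libraries, and for shmiR155HG replicates 2 and 3 the treatment label has another number in the gene's name than the title, which was followed.

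In resting lymphocytes NFAT proteins are phosphorylated and kept in the cytoplasm. When receptors empty the calcium stores of the endoplasmic reticulum and calcium then enters through the plasma membrane, calcineurin, built from a catalytic A subunit (PPP3CA, PPP3CB or PPP3CC) and the calcium-binding B subunit PPP3R1, removes these phosphates and NFAT moves into the nucleus. There it induces cytokine and immune effector genes, and kinases such as GSK3, DYRK and casein kinase 1 return it to the cytoplasm. The RCAN proteins bind the catalytic subunit and inhibit it, and RCAN1 is known for a short isoform that NFAT itself induces from an internal start, which makes it a feedback inhibitor. Because poly(A) libraries record mRNA levels, none of the values below measures phosphatase activity or the place of NFAT in the cell.

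Total counts lay between 36588321 and 39157264 in shCtrl libraries and between 33454786 and 38481972 in shmiR155HG libraries, and scaling factors from the TMM method were within 0.997 and 1.003. The mean chi-square between pairs of replicates was 7.35 to 10.9 per gene. This is more than sampling alone would give if a count stands for 1 read, which is not known. MIR155HG (ENSG00000234883, chr21:25561810-25575168 of hg38, plus strand, lncRNA), the target of the shRNA, had 73, 67 and 62 counts in shCtrl libraries and 28, 19 and 10 in shmiR155HG libraries, with no overlap between the groups. By edgeR's quasi-likelihood test it had an adjusted p of 0.00450 and a log2 fold change of −1.78 (SE 0.43), which moved to −2.13 without shmiR155HG replicate 1. MIR155HG was near the filter, at 1.88, 1.84 and 1.59 CPM in shCtrl and 0.730, 0.499 and 0.299 CPM in shmiR155HG libraries. It passed only through the shCtrl libraries, so its p is no independent check of the knockdown. Of 12 NK cell markers 11 passed the filter (CD7 did not), and their summed level was 3231 to 3328 CPM in shCtrl and 3568 to 3662 CPM in shmiR155HG libraries. Within it IL2RB (mean 1006 against 1270 CPM), TBX21, EOMES and KLRC1 were called higher and PRF1 (328 against 286 CPM) and NCR3 (159.8 against 135 CPM) lower. Of 7 T cell markers only CD3E and TRAC passed, at a summed level of 398 to 409 CPM against 400 to 417 CPM. Of the 4 B cell markers only PAX5 passed, with a sum of 229 to 265 CPM against 341 to 344 CPM, while MS4A1 had at most 5 counts in any library. Of 4 myeloid markers ITGAX and CSF1R passed, with a sum of 128 to 143 CPM against 102 to 108 CPM, and the 3 epithelial markers were at 0 in every library. The share of counts from mitochondrial genes was 2.13% to 2.18% in shCtrl and 2.35% to 2.48% in shmiR155HG libraries, and the summed level of replication-dependent histone genes was 80.2 to 86.2 CPM against 143 to 159 CPM. The groups did not overlap in the histone level, the mitochondrial share and the NK, B cell and myeloid sums, and their part in the results below was not tested. In bulk RNA, fewer cells that express a gene and less of its RNA per cell cannot be told apart.

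RCAN2 (ENSG00000172348) was the member that differed most between the groups. It lies on the minus strand at chr6:46220736-46491972 of hg38, and its canonical transcript has 5 exons. A start of transcription is shown for RCAN2, as the gene with the large fall, and for RCAN1, as the gene known for an NFAT-driven start. Windows that span a start, most of their bases lying before it, were taken from RefSeq (GRCh38.p14), which lists at least 1 for 7 of the 10 members, and were searched for GGAAA, the core of the NFAT binding site, on both strands (a match on the other strand reads TTTCC). No other motif was searched. RefSeq lists 6 starts for RCAN1, and the window shown for it is the one with the most cores, 88291 bases downstream of the canonical start. RefSeq lists 3 starts for RCAN2, and the window shown is that of its canonical start. Both are printed 5′ to 3′ on the gene's strand, with the cores in capitals.
RCAN1 internal start, chr21:34526773-34527072, minus strand: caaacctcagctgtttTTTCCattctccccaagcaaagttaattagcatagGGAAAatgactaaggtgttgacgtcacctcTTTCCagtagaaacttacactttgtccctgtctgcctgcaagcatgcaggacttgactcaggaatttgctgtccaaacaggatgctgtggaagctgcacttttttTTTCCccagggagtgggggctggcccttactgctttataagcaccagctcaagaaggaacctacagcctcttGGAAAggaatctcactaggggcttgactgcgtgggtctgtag
RCAN2 canonical start, chr6:46491400-46491699, minus strand: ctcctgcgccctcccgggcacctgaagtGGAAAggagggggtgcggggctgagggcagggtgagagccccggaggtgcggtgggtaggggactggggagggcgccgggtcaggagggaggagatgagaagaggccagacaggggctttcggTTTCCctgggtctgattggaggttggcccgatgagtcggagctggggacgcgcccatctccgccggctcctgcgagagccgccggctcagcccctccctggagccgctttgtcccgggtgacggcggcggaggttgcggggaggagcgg
The RCAN1 window held 5 cores and the RCAN2 window 2. The other RCAN1 windows held 1, 1, 0, 0 and 0 cores, the other RCAN2 windows none, and each of the 3 RCAN3 windows held 1. Among 35116 promoter windows of the same length 61.2% held at least 1 core and 27.5% held 2 or more. The RCAN1 window was picked out of 6 for its number of cores, so that number is not set against single windows. A match of 5 letters is a description of the window and not a binding site, and counts per gene do not show which start was used.

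The 3 shCtrl libraries held 407, 352 and 379 RCAN2 counts, and the 3 shmiR155HG libraries 121, 113 and 77. In CPM scaled with TMM factors (normalized CPM) these libraries stood at 10.5, 9.65 and 9.73 for shCtrl and at 3.15, 2.97 and 2.30 for shmiR155HG. Every shmiR155HG library lay below every shCtrl library, and the highest shmiR155HG value was far under the lowest shCtrl value. The mean was 9.95 ± 0.448 CPM (SD, n = 3) in shCtrl and 2.81 ± 0.448 CPM (SD, n = 3) in shmiR155HG cells, and by the fitted value 28.3% of the shCtrl level was left. The log2 fold change was −1.82 (SE 0.19). It stayed between −1.91 and −1.70 over 15 alternative settings that changed the scaling, the filter, the test or the libraries used. No other annotated gene shares exon bases with RCAN2 in GENCODE.

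RCAN1 (ENSG00000159200, chr21:34513142-34615113 of hg38, minus strand), the feedback inhibitor, was lower in level and differed little. It had 112, 96 and 152 counts in shCtrl and 106, 103 and 85 counts in shmiR155HG libraries. The groups overlapped, because shCtrl replicate 2 lay among the shmiR155HG libraries. Means were 3.14 ± 0.673 CPM (SD, n = 3) and 2.67 ± 0.115 CPM (SD, n = 3), with a log2 fold change of −0.23 (SE 0.28). Leaving out 1 library moved this value between −0.34 and −0.04. The gene shares 921 exon bases with an annotated gene on the same strand (ENSG00000288711) that has no entry in the count table.

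RCAN3 (ENSG00000117602, chr1:24502351-24541040 of hg38, plus strand) was the abundant member of the family. Its normalized level was 126, 119 and 127 CPM in shCtrl and 125, 136 and 141 CPM in shmiR155HG libraries. Both groups overlapped, with shmiR155HG replicate 1 inside the shCtrl range. The log2 fold change was 0.11 (SE 0.05). RCAN3 shares 1075 exon bases with NCMAP-DT and 174 with RCAN3AS, both on the other strand. Whether the counting used strand is not stated, so reads of these genes may not be separated from those of RCAN3.

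**Figure D1:**
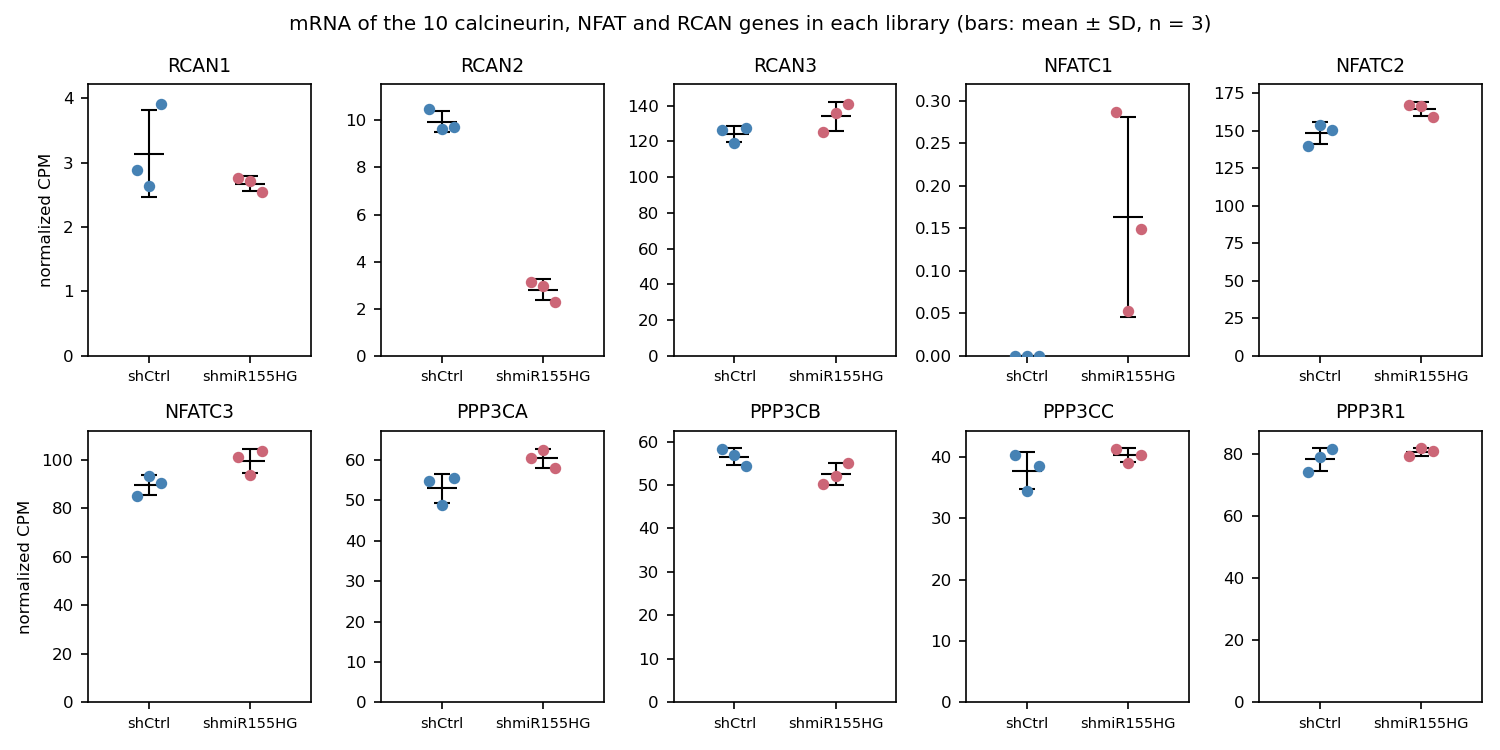
Normalized CPM (y axis, from 0, a different scale in each panel) of the 10 calcineurin, NFAT and RCAN genes in shCtrl and shmiR155HG cells. Each point is a library and the bars give mean ± SD of 3 libraries; RCAN2 falls from 9.65 CPM or more to 3.15 CPM or less, while the other panels show groups that overlap or lie close together, apart from NFATC1, whose values are all under 0.3 CPM.

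Divided by exon length, the levels of the RCAN genes can be set against each other. In normalized CPM per kb of merged exons, RCAN3 stood at 17.4 ± 0.613, RCAN2 at 2.62 ± 0.118 and RCAN1 at 0.450 ± 0.0966 (SD, n = 3) in shCtrl cells. In shmiR155HG cells these levels were 18.8 ± 1.13, 0.740 ± 0.118 and 0.383 ± 0.0165 (SD, n = 3). RCAN2 thus made up 12.8% ± 0.514 of the summed RCAN level in shCtrl and 3.74% ± 0.760 in shmiR155HG cells (SD, n = 3). RCAN3 was the main RCAN mRNA in both groups. Its share was 85.0% ± 0.180 and 94.3% ± 0.934, and that of RCAN1 2.19% ± 0.416 and 1.93% ± 0.177 (SD, n = 3). The summed level of the 3 genes was 20.5 ± 0.741 CPM per kb in shCtrl and 19.9 ± 1.01 CPM per kb in shmiR155HG cells (SD, n = 3), a difference below either SD. With the length of the canonical transcript in place of merged exons, RCAN1 counted for more (5.61% and 4.99% of the sum) and came to lie above RCAN2 in shmiR155HG cells, whereas RCAN2 lay above RCAN1 with merged exons.

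The catalytic subunits showed small differences in both directions. PPP3CA (ENSG00000138814, chr4:101023409-101348278 of hg38, minus strand), the alpha isoform, stood at 54.8, 48.9 and 55.4 CPM in shCtrl and at 60.5, 62.5 and 57.9 CPM in shmiR155HG libraries. Its groups did not overlap, and the log2 fold change was 0.19 (SE 0.07). PPP3CB (ENSG00000107758, chr10:73436433-73496024, minus strand), the beta isoform, stood at 58.2, 57.0 and 54.4 CPM in shCtrl and at 50.2, 52.1 and 55.1 CPM in shmiR155HG libraries. Here shmiR155HG replicate 3 lay above the lowest shCtrl library, and the log2 fold change was −0.11 (SE 0.07). PPP3CC (ENSG00000120910, chr8:22440819-22541142, plus strand), the gamma isoform, stood at 40.3, 34.5 and 38.4 CPM in shCtrl and at 41.3, 39.0 and 40.3 CPM in shmiR155HG libraries. Its groups overlapped and the log2 fold change was 0.09 (SE 0.08).

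The regulatory subunit PPP3R1 (ENSG00000221823, chr2:68178857-68256237, minus strand), which pairs with each of the catalytic subunits, stood at 74.2, 79.0 and 81.4 CPM in shCtrl and at 79.2, 81.9 and 80.7 CPM in shmiR155HG libraries. The groups overlapped, with shmiR155HG replicate 2 just above the shCtrl range and the others inside it, and the log2 fold change was 0.04 (SE 0.06). PPP3R1 shares 700 exon bases with a lncRNA on the other strand, PPP3CC 298, PPP3CA 46 and PPP3CB 13, and PPP3R1 also shares 462 on its own strand with ENSG00000273398, a protein-coding gene that the count table does not list. Of the summed catalytic level per length, PPP3CA took 29.6% ± 0.973 in shCtrl and 32.4% ± 1.31 in shmiR155HG cells, PPP3CB 32.4% ± 1.85 and 28.8% ± 1.31, and PPP3CC 37.9% ± 1.15 and 38.8% ± 1.09 (SD, n = 3). The sum itself was 34.3 ± 1.71 and 35.7 ± 0.0888 CPM per kb of merged exons (SD, n = 3). With the length of the canonical transcript, PPP3CA took 25.1% and 27.7%, PPP3CB 36.2% and 32.4%, and PPP3CC 38.7% and 39.9%.

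Among the NFAT factors, NFATC2 (ENSG00000101096, chr20:51386957-51562831 of hg38, minus strand), known as NFAT1 and a main NFAT of T and NK cells, stood at 140, 154 and 151 CPM in shCtrl and at 168, 167 and 159 CPM in shmiR155HG libraries. The groups did not overlap, but the gap between them was small beside the level. Means were 148 ± 7.33 and 165 ± 4.69 CPM (SD, n = 3), and the log2 fold change was 0.15 (SE 0.04). NFATC3 (ENSG00000072736, chr16:68084751-68229259, plus strand), known as NFAT4, stood at 85.3, 93.3 and 90.5 CPM in shCtrl and at 101, 93.9 and 104 CPM in shmiR155HG libraries. Its groups did not overlap either, with shmiR155HG replicate 2 just above the highest shCtrl library, and the log2 fold change was 0.15 (SE 0.05). NFATC3 shares 2796 exon bases with a lncRNA and 227 with ESRP2, both on the other strand, and on its own strand 1385 with ENSG00000263276, a lncRNA in the count table, and 285 with ENSG00000261864. NFATC2 shares none.

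NFATC1 (ENSG00000131196, chr18:79395856-79529325 of hg38, plus strand), known as NFAT2, which activated lymphocytes induce from its own NFAT-bound promoter, was at or near the limit of detection. It had 0 counts in all 3 shCtrl libraries and 11, 2 and 5 counts in shmiR155HG libraries. If a count stands for 1 read, which is not known, a count of 0 allows up to 3 counts. In a shCtrl library that is 0.0769 to 0.0821 CPM. This limit covers counting error only, and it would be higher if a read added more than 1 count. The shmiR155HG libraries stood at 0.287, 0.0525 and 0.150 CPM. With 1 read a count, replicate 2 lay under that limit and the other replicates above it. No fold was computed for NFATC1. Per kb of merged exons, NFATC2 made up 63.7% of the summed NFAT level and NFATC3 36.3% in both groups. NFATC1 made up 0.0572% ± 0.0405 in shmiR155HG cells (SD, n = 3). The summed level of the 3 genes was 28.1 ± 1.34 CPM per kb in shCtrl and 31.2 ± 0.494 CPM per kb in shmiR155HG cells (SD, n = 3). With the length of the canonical transcript, NFATC2 made up 58.2% and NFATC3 41.8% in shCtrl cells, and 58.1% and 41.8% in shmiR155HG cells.

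**Figure D2:**
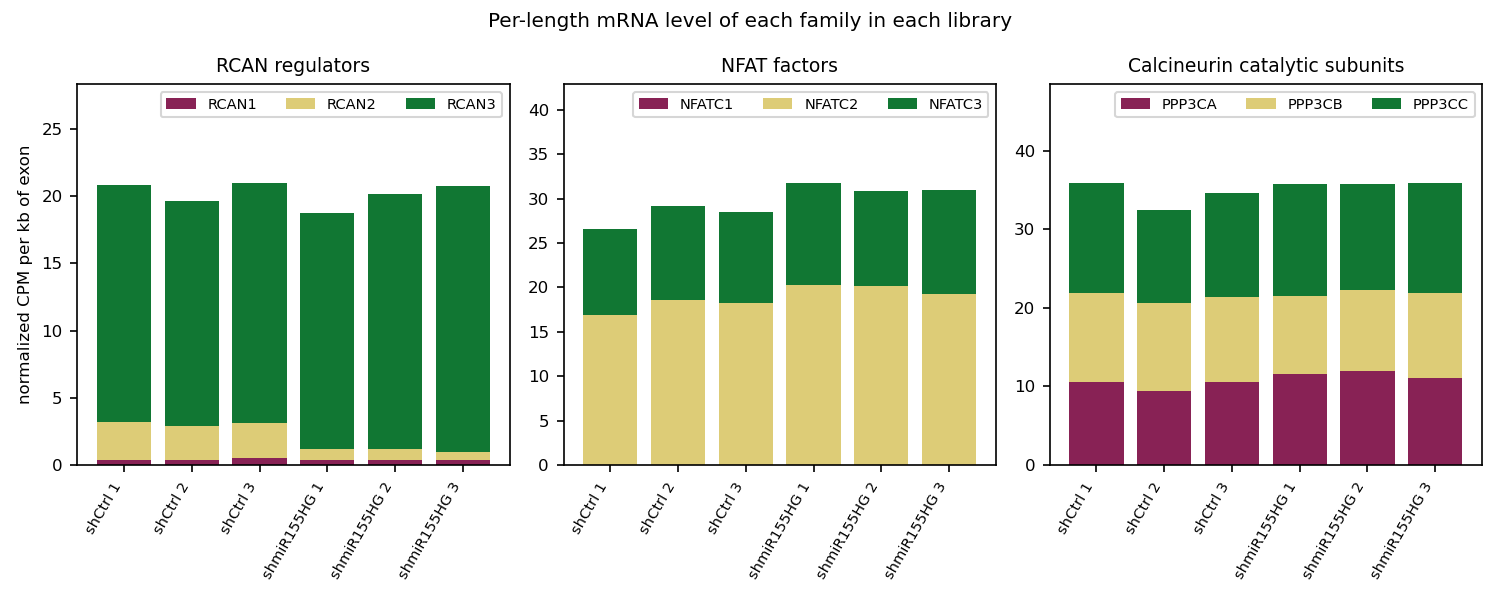
Stacked normalized CPM per kb of merged exons (y axis, from 0) in each of the 6 libraries (x axis) for the RCAN regulators, the NFAT factors and the calcineurin catalytic subunits. Bar segments are genes; the RCAN2 segment shrinks from a mean of 2.62 to 0.740 CPM per kb under a total near 20 CPM per kb, and the shares within the other families shift less.

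Ordered by level per kb of merged exons in shCtrl cells, PPP3R1 came first with 23.3 CPM per kb, followed by NFATC2 (17.9) and RCAN3 (17.4), whose ranges overlapped. PPP3CC (13.0) and PPP3CB (11.1) came next, then NFATC3 (10.2) and PPP3CA (10.2), whose ranges also overlapped, and RCAN2, RCAN1 and NFATC1 closed the order. In shmiR155HG cells PPP3CC was followed by PPP3CA (11.6), NFATC3 (11.3) and PPP3CB (10.3), with ranges that overlapped from one to the next, and the rest of the order was the same. RCAN3 was thus the single RCAN gene with an mRNA level per length near that of the calcineurin subunits.

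Read against the whole table, 1 of the 9 members tested had an adjusted p under 0.05 and was lower (RCAN2), where 8.02% of all 12263 genes tested were called lower, and 1 was higher (NFATC2), where 7.26% of all genes were. In either direction this makes 2 of 9 members beside 15.3% of all genes (1874 of 12263). The groups did not overlap for 4 of the 9 members, namely RCAN2, NFATC2, NFATC3 and PPP3CA, beside 30.8% of all genes. Under the rule of the study's methods (edgeR's exact test, a fold change over 1.2 and p under 0.01 without adjustment), 1 of 9 members was called, RCAN2, beside 8.29% of all genes. Since the members were chosen with this comparison known, nothing is read from these counts. The median log2 fold change of the 9 members was 0.09 and that of all genes tested 0.00. RCAN2, whose fall was known when the set was chosen, was called under each of the 15 alternative settings. These settings reuse the same libraries and are no independent support for that fall. The call of NFATC2 was absent under the rule of the study and without shCtrl replicate 1, shmiR155HG replicate 1 or shmiR155HG replicate 2. PPP3CA was called without shCtrl replicate 3 and with DESeq2, and NFATC3 was called without shmiR155HG replicate 2, which leaves between 1 and 3 members called when 1 library is left out.

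Since the shRNA is directed at the host transcript of miR-155, the canonical 3′UTRs of the members were searched for AGCATTA, the match to bases 2 to 8 of hsa-miR-155-5p. MIR155 itself is not listed in the count table, so the miRNA was not measured here. Its mature sequence (RefSeq, GRCh38.p14, chr21:25573983-25574006, plus strand) has the seed in capitals, and the 2 sites found in members are shown with the match in capitals and 11 bases on either side.
hsa-miR-155-5p: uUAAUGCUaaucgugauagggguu
PPP3CB, chr10:73436597-73436625, minus strand: tgttttacatgAGCATTAgtaactgagca
NFATC2, chr20:51389030-51389058, minus strand: agagaaacaaaAGCATTAgatttgagaca
The PPP3CB site starts at base 1628 of a 3′UTR of 1809 bases, and the NFATC2 site at base 2449 of 4533. RCAN2, with a 3′UTR of 2405 bases, and the other 7 members held no match in these 3′UTRs. Thus 2 of 10 members held a site, beside 11.9% of the 10751 tested genes with a canonical 3′UTR. PPP3CB had a log2 fold change of −0.11 and NFATC2 of 0.15, so the 2 members with a site differed in sign. The search covers 7 letters in 1 transcript a gene and says nothing of sites elsewhere.

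The rest of the pathway was described through 91 genes in 6 lists, of which 90 have an entry in the count table and 68 passed the filter. At an adjusted p under 0.05 from edgeR's quasi-likelihood test, 8 of these 68 genes were lower and 11 were higher in shmiR155HG cells (27.9% called, beside 15.3% of all genes), and their median log2 fold change was 0.01. Under the rule of the study 5 of the 68 were called, 1 lower and 4 higher, beside 8.29% of all genes. The lists were chosen with earlier results of these data known, so nothing is read from their shares of calls. Of the genes that encode other family members, NFAT5, the factor of the osmotic stress response, and NFATC2IP passed the filter (median −0.07). Neither was called by edgeR's quasi-likelihood or exact test or by DESeq2, and 1 of them, NFATC2IP, had an unadjusted p under 0.05 in the first. NFATC4 and the testis subunit PPP3R2 were at 0 in every library.

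Among genes of calcium release and store-operated entry, 18 of 21 passed the filter, 4 were lower and 2 were higher (33.3% called, beside 15.3% of all genes), with a median log2 fold change of −0.05. PLCG2, the phospholipase C that makes the second messenger IP3, fell with 4477, 4123 and 4527 counts in shCtrl and 3605, 3920 and 3027 counts in shmiR155HG libraries (log2 fold change −0.26, SE 0.05, adjusted p = 0.000837). Its groups did not overlap once scaled. ITPR1, an IP3-gated calcium channel of the endoplasmic reticulum, had a log2 fold change of −0.24 (adjusted p = 0.0103), a call that was lost without shCtrl replicate 1 or shmiR155HG replicate 3 (adjusted p = 0.0508 and 0.0909). PLCG1 (−0.12, adjusted p = 0.0412), which was named after its values were seen, lost its call without shCtrl replicate 2 or 3 or shmiR155HG replicate 1 or 2 (adjusted p between 0.103 and 0.173). STIM2, a calcium sensor of the stores, had a log2 fold change of −0.17 (adjusted p = 0.0494), and leaving out any of the 6 libraries raised the adjusted p to between 0.0644 and 0.200. In the other direction, ATP2B4, a calcium pump of the plasma membrane, had a log2 fold change of 0.17 (adjusted p = 0.00469, and 0.0550 without shmiR155HG replicate 1), and ORAI2, a pore subunit of the store-operated channel, one of 0.16 (adjusted p = 0.010). The call of ORAI2 was lost without shCtrl replicate 1 or shmiR155HG replicate 1 or 2 (adjusted p between 0.0705 and 0.0934). STIM1 and ORAI1, the principal sensor and pore, had log2 fold changes of −0.05 and 0.14 and were not called.

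Of 14 calmodulin genes and calcineurin-binding proteins 9 passed the filter, and 1 was called (11.1%, beside 15.3% of all genes; median −0.02). This was CABIN1, a nuclear protein that binds and inhibits calcineurin, with a log2 fold change of 0.15 (adjusted p = 0.0292). Its call was lost when any library other than shCtrl replicate 3 was left out (adjusted p between 0.0666 and 0.170). The calmodulin genes CALM2 and CALM3 had log2 fold changes of −0.08 and −0.04, and PPIA and FKBP1A, which encode the cyclophilin and the FKBP12 protein that carry ciclosporin and tacrolimus to calcineurin, of −0.07 and 0.02. None of these 4 was called.

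Among NFAT kinases and nuclear transport genes, 15 were listed and 14 passed the filter, with 2 lower, 2 higher (28.6% called, beside 15.3% of all genes) and a median log2 fold change of 0.03. CSE1L, the export receptor of importin alpha, fell (log2 fold change −0.19, adjusted p = 0.000191), as did XPO1, the export receptor through which NFAT leaves the nucleus (−0.15, adjusted p = 0.00377). KPNA1, an importin alpha, rose (0.22, adjusted p = 0.000481), and DYRK2, an NFAT kinase, had a log2 fold change of 0.20 (adjusted p = 0.0485) with groups that overlapped. The call of DYRK2 was lost without shCtrl replicate 1 or 2 or shmiR155HG replicate 1 or 2 (adjusted p between 0.107 and 0.290). GSK3A and GSK3B had log2 fold changes of 0.04 and 0.14 and were not called. None of 11 other calcineurin substrates, among them the MEF2 factors, the CRTC coactivators and TFEB, was called in either direction by edgeR's quasi-likelihood or exact test or by DESeq2 (median 0.08), and 3 of them had an unadjusted p under 0.05 in the first, CRTC1 and CRTC3 higher and DNM1L lower.

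**Figure D3:**
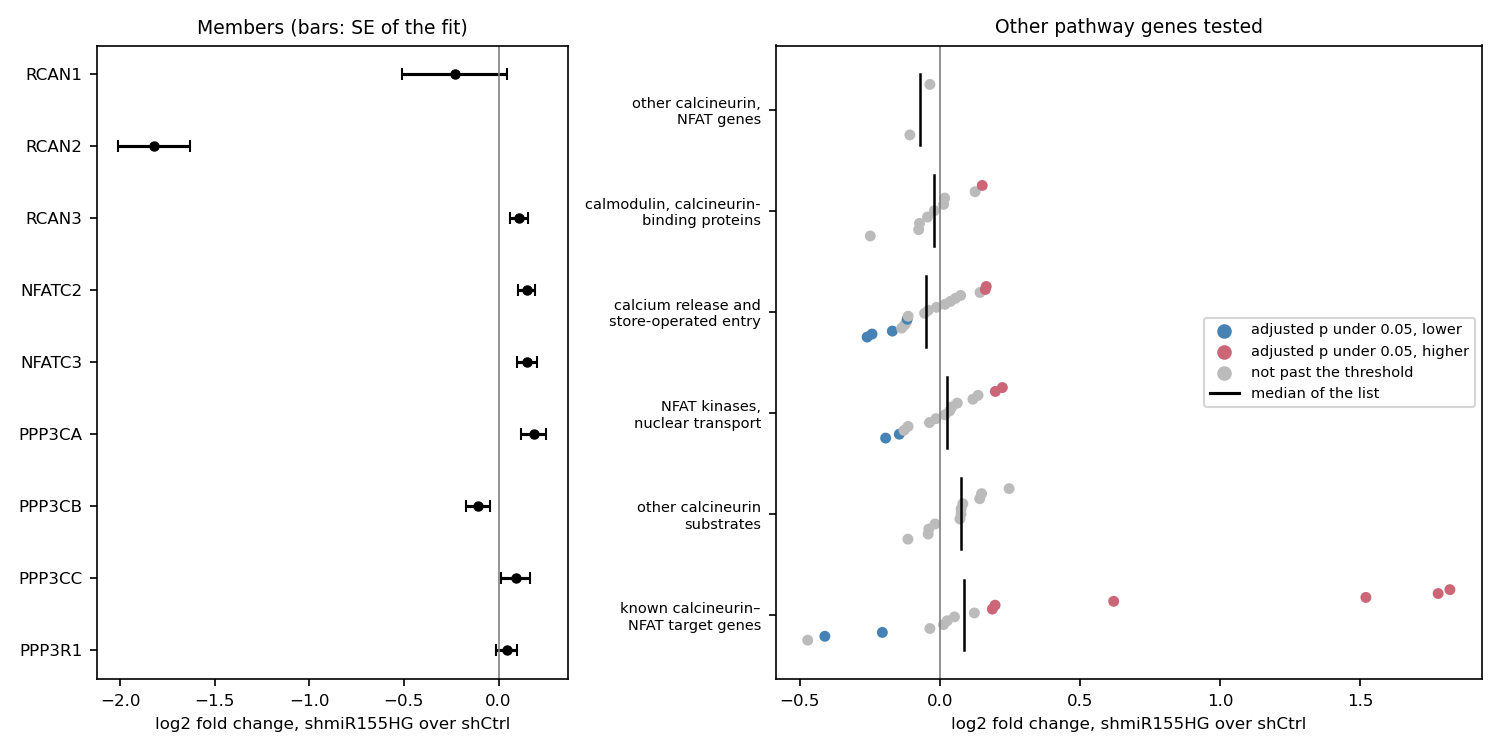
Log2 fold change of shmiR155HG over shCtrl (x axis) for the 9 members tested, with bars for the SE of the fit (left), and for the 68 other pathway genes tested, by list (right; blue and red points have an adjusted p under 0.05, and a black line marks the median of a list). RCAN2 at −1.82 is the only member beyond 0.3 in size, and in the lists only genes induced by calcineurin and NFAT reach beyond 0.5.

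Genes known to be induced by calcineurin and NFAT moved in both directions. Of 26 genes listed 14 passed the filter, 2 were lower and 6 were higher (57.1% called, beside 15.3% of all genes), with a median log2 fold change of 0.09. This list, too, was chosen with earlier results of these data known, so nothing is read from that share. The highest changes were in members of the NR4A and EGR families of transcription factors, which act in lymphocytes stimulated through calcium and antigen receptors. NR4A2 stood at 12.0, 13.8 and 13.7 CPM in shCtrl and at 45.6, 46.7 and 47.5 CPM in shmiR155HG libraries, and no shmiR155HG library came near the shCtrl range. Its log2 fold change was 1.82 (SE 0.09, adjusted p = 1.32e-14). EGR2 stood at 1.75, 2.60 and 1.36 CPM in shCtrl and at 6.70, 6.70 and 6.19 CPM in shmiR155HG libraries, again without overlap (log2 fold change 1.78, SE 0.25, adjusted p = 7.47e-06). NR4A3 was lower in level, with 37, 21 and 33 counts in shCtrl and 102, 56 and 91 counts in shmiR155HG libraries (log2 fold change 1.52, SE 0.39). Every shCtrl library was under 1 CPM (0.951, 0.576 and 0.847), so NR4A3 passed the filter only through the shmiR155HG libraries. It is counted among the 6 higher genes, but no test is read from it. NR4A1, the third of that family, had a log2 fold change of 0.12 and was not called.

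Outside the rule for named genes, and named after their values were seen, XCL1, a chemokine that NK cells secrete, rose by 0.62 on the log2 scale (adjusted p = 0.00186), TOX, a transcription factor of NK cell development and T cell exhaustion, by 0.20 (adjusted p = 0.000194), and FASLG, the death ligand, by 0.19 (adjusted p = 0.0163, and 0.0638 without shmiR155HG replicate 1). IFNG, the main cytokine of NK cells treated with IL-12, fell. It stood at 177, 163 and 166 CPM in shCtrl and at 132, 124 and 125 CPM in shmiR155HG libraries, without overlap, and its log2 fold change was −0.41 (SE 0.04, adjusted p = 1.40e-07). DGKA, a diacylglycerol kinase, had a log2 fold change of −0.21 (adjusted p = 0.0432), a call that was lost without shCtrl replicate 1 or 3 or any of the shmiR155HG libraries (adjusted p between 0.0685 and 0.164). TNF, IL2RA and IRF4 had log2 fold changes of 0.05, 0.01 and 0.03 and were not called. CTLA4 had the lowest log2 fold change of the list (−0.47, SE 0.25), with groups that overlapped, and was not called either. IL2, IL3, IL21, EGR3, PTGS2, RNF128 and PDCD1 were at 0 in every library, and the highest count of any gene of this list under the filter was 20. Whether the genes of this list answer to calcineurin in these cells was not tested, since no library with a calcineurin inhibitor or a calcium signal was among the samples.

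**Figure D4:**
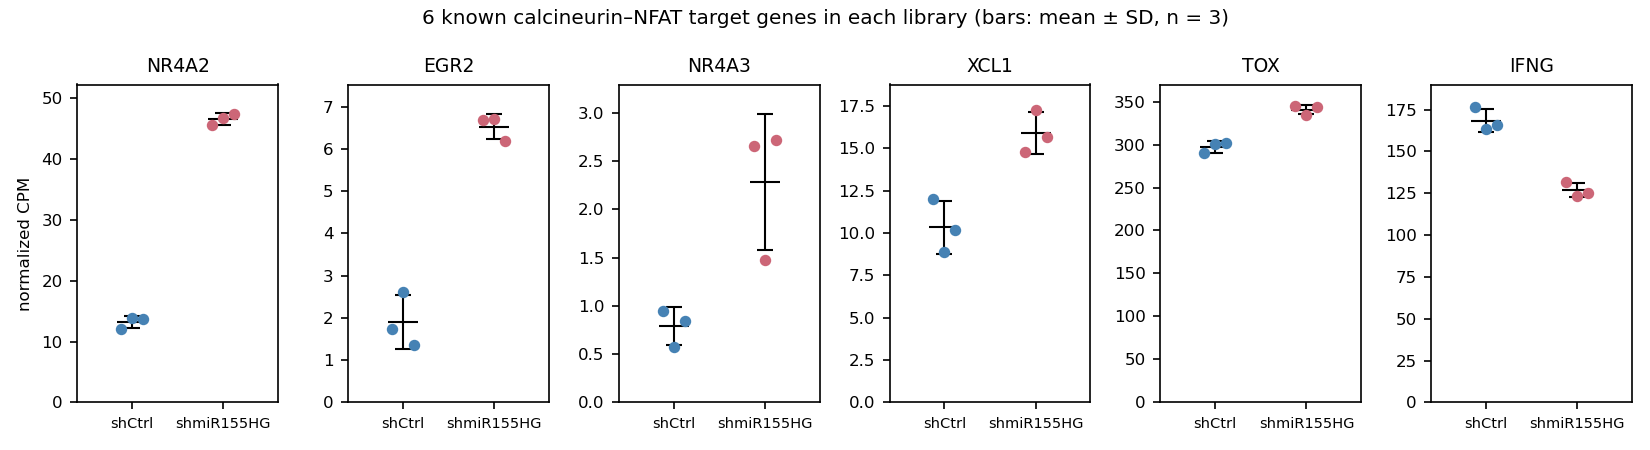
Normalized CPM (y axis, from 0, a different scale in each panel) of 6 genes known to be induced by calcineurin and NFAT in shCtrl and shmiR155HG cells. Each point is a library and the bars give mean ± SD of 3 libraries; NR4A2, EGR2, NR4A3, XCL1 and TOX are higher and IFNG is lower in every shmiR155HG library.

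The genes with the pattern most like that of RCAN2 were found by the Euclidean distance between log2 normalized CPM values centred on each gene's mean over the 6 libraries, leaving out those whose mean was under 1 CPM. The 5 nearest were KCNU1 (distance 0.477), ASIC1 (0.517), MIR155HG (0.528), IL18RAP (0.737) and COL16A1 (0.781). With 6 libraries in 2 groups, such a likeness rests mostly on a fall of similar size. KCNU1, a potassium channel gene, had 69, 62 and 60 counts in shCtrl and 25, 24 and 16 counts in shmiR155HG libraries (log2 fold change −1.50). ASIC1, a proton-gated sodium channel gene, had 754, 630 and 765 against 228, 207 and 213 counts (−1.67). IL18RAP, a chain of the IL-18 receptor, had 575, 565 and 546 against 168, 218 and 193 counts (−1.48), and COL16A1, a collagen gene, 371, 280 and 288 against 139, 121 and 112 counts (−1.28). RCAN2 kept 28.3% of its shCtrl level, ASIC1 31.5%, KCNU1 35.4%, IL18RAP 35.8%, COL16A1 41.3% and MIR155HG 29.2%. In each of them the groups did not overlap. These genes were chosen for their likeness, so no test is given for them here.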

How the data were processed

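RNA-seq gene counts of 6 libraries (3 shCtrl, 3 shmiR155HG) were used. The authors aligned paired reads of 150 bases to hg38 with HISAT2, assembled counts with StringTie and prepDE.py3, and deposited whole-number counts per gene without normalization. The annotation release, strand use and the read length given to the counting step are not given in the sources used here, so whether a count stands for 1 read is not known.

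All fits were run with edgeR 4.0.16 (with limma 3.58.1) under R 4.3.3, and DESeq2 1.42.0 served as an alternative. The filter, over 1 CPM in 2 or more libraries, follows the study's methods, and libraries were scaled with TMM. The main test was edgeR's robust quasi-likelihood test without a block (Benjamini-Hochberg adjustment over all genes tested, adjusted p under 0.05). An SD is that of normalized CPM over a group's libraries, and an SE that of the log2 fold change. The method was tested on simulated data.

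The members and gene lists were chosen with earlier results of these data known, and the counts of lists are no independent support. Named genes were all members, MIR155HG, in each list up to 3 lower and 3 higher calls with the largest change and a mean of at least 1 CPM, and the 5 genes nearest to RCAN2. Positions, exon lengths and 3′UTRs come from GENCODE for hg38, and promoter windows and the miRNA from RefSeq (GRCh38.p14). Alternatives covered the scaling, the filter, the test, halved counts, the replicate block and each library left out in turn.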

Additional observations from a re-analysis of the deposited data

How the results depend on the processing

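Over 15 alternative settings none of the fold changes of MIR155HG, the 9 members tested, the 19 pathway genes called and the genes nearest to RCAN2 changed sign, and other single genes were not followed. The number of genes called was 1874 (984 lower, 890 higher), and it ranged from 1254 to 1808 with 1 library left out and was 1017 (466 lower, 551 higher) under the rule of the study. These numbers under the rule of the study, as applied here, differ from the numbers of increased and decreased genes that the paper reports. The number of members called was 2, ranged from 1 to 3 with 1 library left out (1 without shCtrl replicate 1 or without shmiR155HG replicate 1) and was 1 under the rule of the study. The number of other pathway genes called was 19 (8 lower, 11 higher), ranged from 13 to 18 with 1 library left out (8 lower, 6 higher without shmiR155HG replicate 1) and was 5 under the rule of the study, whose fold threshold is above most of these changes. The MIR155HG fold change stayed between −2.13 and −1.52 and was called throughout. Replicate numbers did not pair the libraries (the deviations of same-numbered libraries correlated at −0.0128, 0.0121 and 0.0197 across 12263 genes, and shmiR155HG replicate 1 correlated best with shCtrl replicate 2), and a fit with the replicate block called 2 members, 15 other pathway genes and 1738 genes in all.

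Limits of these values are the low counts of RCAN1, MIR155HG and NFATC1 and the gene-level counting, which merges isoforms and starts. A further limit is the exon overlap of RCAN1, RCAN3, NFATC3 and PPP3R1 with other genes. Called pathway genes overlap too. On their own strand PLCG2 shares 4141 exon bases and EGR2 145 with lncRNAs that the count table does not list. On the other strand KPNA1 shares 1377, XPO1 690, DYRK2 594, ORAI2 588, ITPR1 444 and DGKA 353 with other genes. The part of these overlaps in the calls was not tested. Whether NFATC2, NFATC3 and PPP3CA were called depended on single libraries. All values come from 3 libraries a group of 1 cell line.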

Other observations

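Because NR4A2, EGR2 and NR4A3 rose, 9 immediate-early genes that many stimuli induce were looked at after those values had been seen, so their values are given without a test. EGR1, a sister gene of EGR2, had 351, 386 and 446 counts in shCtrl and 699, 781 and 646 counts in shmiR155HG libraries (log2 fold change 0.90, SE 0.13). FOSB had 56, 74 and 21 against 115, 115 and 101 counts (1.18, SE 0.37), and FOS 585, 518 and 613 against 684, 820 and 608 counts (0.36, SE 0.12). In normalized CPM the groups of these genes and of ZFP36 (0.18, SE 0.08) did not overlap, with the shmiR155HG libraries higher, although the raw counts of FOS did. These are 4 of the 9 genes, beside 30.8% of all genes without overlap in either direction, and nothing is read from that count. JUN, JUNB, ATF3, DUSP1 and IER2 had log2 fold changes of −0.03, −0.08, 0.05, 0.46 and 0.04, with groups that overlapped. The median over the 9 genes was 0.18, beside 0.00 for all genes tested.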
